A study of Mus musculus with 145 samples.

Results

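The genes described here are 45 cell cycle genes measured by RNA-seq in mouse dorsal skin after ultraviolet irradiation under the lamps of a tanning canopy. The list is fixed by gene name, with no threshold on the counts, but it was chosen with earlier results of these data known: 19 members act at the start of the cycle and in DNA replication, and 26 act in mitosis. All 45 were among the 55416 gene identifiers of the deposited table, and all 45 passed the count filter, which left 18677 genes for testing. Mice were handled as sham controls (0 mJ/cm2) or received 5, 10, 20 or 40 mJ/cm2, and skin was taken at 0, 6, 24, 48, 72 or 96 h. This gave 30 groups of dose and time and 145 libraries, 1 library an animal, with 5 animals in 25 groups and 4 animals in 5 groups (20 mJ/cm2 at 48 h, and 5, 10, 20 and 40 mJ/cm2 at 96 h). The sources used here name no strain, sex or age. The median library held 11.1 M counts (M for mega), the shallowest 0.180 M and the deepest 64.6 M.

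As a cell leaves rest, transcription factors of the E2F family, E2F1 among them, become active. They switch on genes that load and fire replication origins and make nucleotides, and cyclin E drives entry into S phase. Later in the cycle cyclin A, cyclin B and the kinase Cdk1 take over, and the transcription factor Foxm1 with its partner complexes switches on genes of the spindle, the kinetochore and cytokinesis. In skin the dividing cells lie in the basal layer of the epidermis and, while hair is growing, in the hair matrix. Ultraviolet damage is known to halt division through p53 and its target Cdkn1a (the inhibitor p21) and later to be followed by thickening of the epidermis.

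The skin markers Krt5 and Krt14 (basal keratinocytes), Krt1 and Krt10 (suprabasal keratinocytes) and Col1a1 and Col1a2 (fibroblasts) had counts in all 145 libraries. Skeletal muscle and hair follicle genes were present too, at levels that differed between animals. Library totals of 0.204 M in 20 mJ/cm2 replicate 5 at 0 h and 0.180 M in 10 mJ/cm2 replicate 5 at 6 h stood below all others, of which the lowest had 2.69 M. Leaving both out changed no call among the members at 0 or 6 h. Levels below are CPM, counts scaled to 1 M of a library total corrected by TMM factors. A class level is the mean log2 CPM of the members of that class in a library. In bulk skin, fewer cells of a type and less RNA per cell cannot be told apart.

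The group medians of both class levels lay above sham at every dose from 24 to 72 h. In the fitted comparisons 10 mJ/cm2 at 48 h was apart, with a median log2 fold change of -0.02 over the replication members. At 24 h the replication level had a median of 3.88 in sham skin, 4.12 at 5 mJ/cm2, 4.57 at 10, 4.36 at 20 and 4.41 at 40 mJ/cm2. At 48 h these medians were 3.69, 4.78, 3.90, 4.94 and 5.18 in the same order of dose. The mitosis level at 48 h had medians of 3.11 in sham skin, 4.85 at 5 mJ/cm2, 3.88 at 10, 5.01 at 20 and 5.29 at 40 mJ/cm2. Neither class followed the dose step by step: at 48 h the 10 mJ/cm2 group lay below the 5 mJ/cm2 group in both classes. No p is given for a class level.

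**Figure D1:**
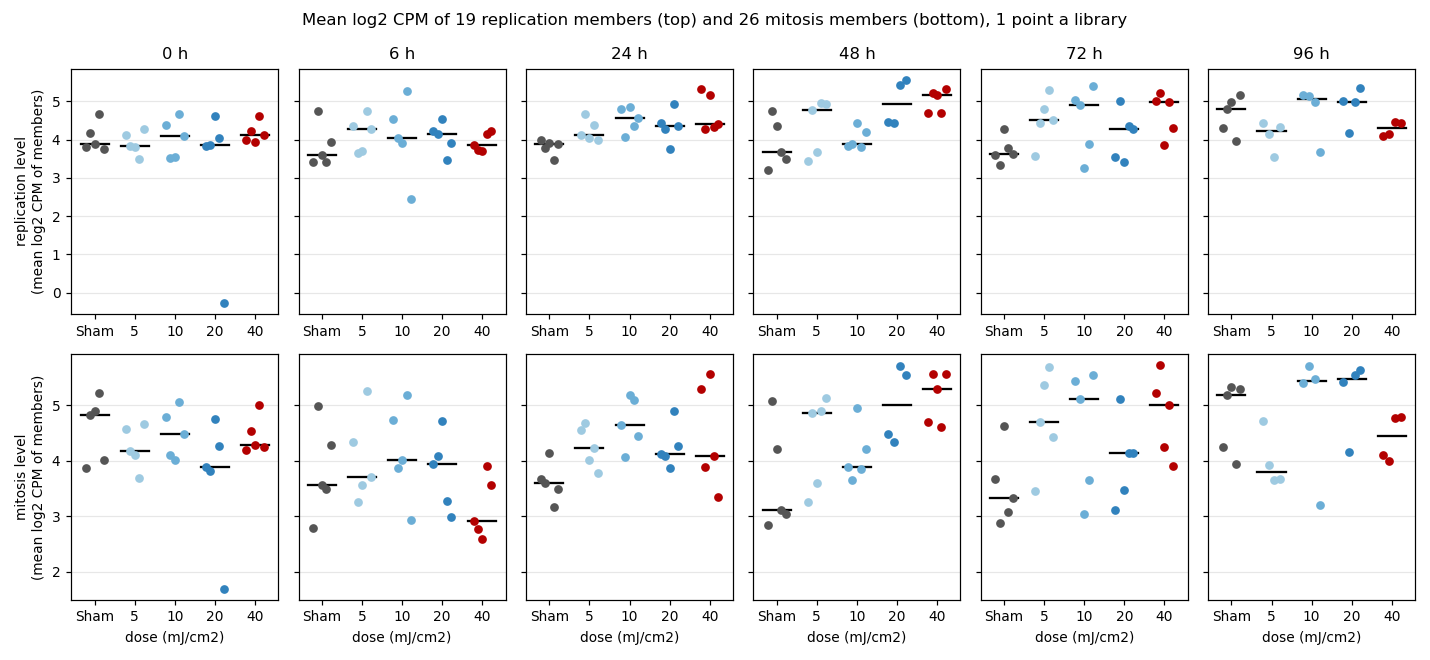
Mean log2 CPM of the 19 replication members (top row) and 26 mitosis members (bottom row) in each library (points) with the group median (line), by dose in mJ/cm2 and by time after exposure. At 48 h the 40 mJ/cm2 libraries had replication levels of 4.70 to 5.33, against 3.20 to 4.75 in sham libraries. The low point at 0 h is the library of 0.204 M counts.

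At 0 h, no member was called at any dose, and no gene of the whole table was called either (0% of 18677 genes, with a call meaning a Benjamini-Hochberg adjusted p under 0.05 in edgeR's quasi-likelihood test). Unadjusted p fell under 0.05 for 4 members at 5 mJ/cm2, none at 10, 4 at 20 and 1 at 40 mJ/cm2, all lower than sham. Over all 18677 genes it did so for 628, 350, 1038 and 831 in that order. Median log2 fold changes over mitosis members were -0.43, -0.11, -0.51 and -0.19 at 5, 10, 20 and 40 mJ/cm2. Over replication members they were -0.14, -0.08, -0.14 and 0.05, and over all genes they lay between -0.03 and 0.02. Mitosis members above 0 numbered 2, 5, 3 and 5 in the same order, so most were below sham at every dose. DESeq2 called no member.

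At 6 h after 40 mJ/cm2 most mitosis members were below sham and the replication members had a median near 0, and no member was called, beside 5.03% of all genes tested. The mitosis level was 2.92, 2.77, 2.59, 3.91 and 3.55 in the 5 libraries at 40 mJ/cm2, against 2.79, 4.99, 3.57, 3.49 and 4.29 in the 5 sham libraries. The groups overlapped, and sham replicate 2 was the highest library. Median log2 fold changes were -0.87 over the 26 mitosis members and 0.02 over the 19 replication members, beside 0.02 over all genes. Of the 26 mitosis members, 24 were below 0. At 0 h too, mitosis medians were below 0 at every dose, down to -0.51 at 20 mJ/cm2. Cenpf, a kinetochore protein, had the lowest adjusted p of the members, with a log2 fold change of -1.39 ± 0.51 (SE, adjusted p = 0.133). Cyclin B2 (Ccnb2) followed with -1.26 ± 0.49 (adjusted p = 0.157). At an unadjusted p under 0.05 there were 8 members, all lower, beside 3254 of 18677 genes in either direction. DESeq2 called no member. Genes of the inner root sheath, which encloses a growing hair, and of the hair matrix had median log2 fold changes of -1.13 and -1.14 at 6 h, beside the lower mitosis level. With the inner root sheath level as a covariate (chosen after the data were seen) the medians were -0.60 for mitosis and 0.24 for replication members, and with the hair shaft level they were -0.73 and 0.18. Without sham replicate 2, whose inner root sheath level was 2.84, they were -0.37 for mitosis members and 0.41 for replication members, of which 18 of 19 were above 0. Within the libraries whose titles end in R1_001 (3 against 3) the mitosis median was -1.47, and within those ending in R1 (2 against 2) it was -0.21. At 5, 10 and 20 mJ/cm2 no member was called either, beside 0%, 0% and 0.412% of all genes. Unadjusted p fell under 0.05 for 6 members at 10 mJ/cm2, all higher, and for none at the other 2 doses, and DESeq2 called none. Such a p was found for 356, 1580 and 1663 of 18677 genes at 5, 10 and 20 mJ/cm2.

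At 24 h after 40 mJ/cm2, 8 of the 45 members rose and none fell. Of the 8, 7 were replication members, and the mitosis member was Top2a. The share of all genes called was 2.92%, with 1.62% of genes called higher. Median log2 fold changes were 1.01 over replication members and 1.09 over mitosis members, beside 0.04 over all genes, and 44 of 45 members were above 0. The mitosis members were as high at the median but more spread between animals.

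Rrm2, the subunit of ribonucleotide reductase that limits deoxynucleotide supply in S phase, had 64.5, 37.5, 95.2, 58.0 and 33.9 CPM at 40 mJ/cm2, against 14.9, 17.6, 22.6, 13.7 and 13.9 CPM in sham skin. The groups did not overlap, and the log2 fold change was 1.80 ± 0.33 (SE, adjusted p = 0.00341). Its partner subunit Rrm1 had 119, 71.9, 167, 127 and 59.8 CPM at 40 mJ/cm2, against 50.8, 58.7, 64.1, 51.8 and 46.0 CPM in sham skin. Here the lowest irradiated library lay within the sham range, and the log2 fold change was 1.00 ± 0.27 (adjusted p = 0.0455). Thymidylate synthase (Tyms), which makes the nucleotide dTMP, had 29.5, 16.3, 30.3, 23.8 and 16.5 CPM, against 11.2, 13.6, 9.90, 10.8 and 13.4 CPM in sham skin. Every irradiated library was above every sham library, with a log2 fold change of 0.98 ± 0.23 (adjusted p = 0.0194).

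Mcm4, a subunit of the replicative helicase, had 67.4, 46.2, 84.2, 65.0 and 43.2 CPM at 40 mJ/cm2, against 30.3, 32.1, 34.0, 28.9 and 26.4 CPM in sham skin. Sham values were close together and all lower, and the log2 fold change was 1.01 ± 0.22 (adjusted p = 0.0128). The helicase loader Cdc6 had 12.6, 5.61, 16.6, 8.17 and 5.70 CPM at 40 mJ/cm2, against 4.10, 3.62, 3.53, 5.06 and 4.22 CPM in sham skin. Its groups were apart too, with a log2 fold change of 1.24 ± 0.34 (adjusted p = 0.0499). Cyclin E1 (Ccne1), which drives entry into S phase, had 10.5, 5.17, 10.8, 5.25 and 5.57 CPM, against 3.17, 2.80, 3.44, 1.27 and 2.97 CPM in sham skin. It was higher in all 5 irradiated animals, with a log2 fold change of 1.43 ± 0.32 (adjusted p = 0.0172).

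Uhrf1, which guides maintenance methylation at replication forks, had 81.8, 20.9, 68.5, 21.9 and 28.5 CPM at 40 mJ/cm2, against 19.3, 10.4, 17.3, 8.98 and 14.4 CPM in sham skin. Replicates 1 and 3 were far above the rest of the irradiated group, and the log2 fold change was 1.63 ± 0.37 (adjusted p = 0.0169). Top2a, the topoisomerase that untangles sister chromatids, had 184, 75.4, 278, 118 and 45.8 CPM, against 49.3, 51.1, 72.5, 35.6 and 40.9 CPM in sham skin. The same replicates led, replicate 5 lay within the sham range, and the log2 fold change was 1.47 ± 0.39 (adjusted p = 0.0438). At 24 h 6 members had every irradiated library above every sham library (Ccne1, Cdc6, Mcm4, Rrm2, Tyms and Uhrf1), all of them replication members, where 2.09% of all genes did so.

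The mitosis level at 24 h was high in 2 of the 5 irradiated animals. In replicates 1 and 3 the mitosis levels were 5.29 and 5.57 and the inner root sheath levels were 3.58 and 3.36 (mean log2 CPM of 10 genes). In replicates 2, 4 and 5 the mitosis levels were 3.88, 4.07 and 3.34, which overlap the sham values of 3.67, 3.60, 4.14, 3.17 and 3.49. The replication levels of those 3 irradiated animals were 4.29, 4.32 and 4.41, above all 5 sham animals, whose highest was 4.00. Inner root sheath levels in sham skin ranged from -1.21 to 0.79, and all 10 genes of the list were above 0 at 40 mJ/cm2 in fold change, with a median of 3.30 and none called. With both high libraries left out, 1 member was called (a replication member), and the median log2 fold changes were 0.63 for replication and 0.21 for mitosis members. With the inner root sheath level as a covariate, 3 members were called, all of replication, with medians of 0.68 and 0.47. Both alternatives were chosen after the data were seen, and the share of all genes called in them is not given. Skeletal muscle genes had a median log2 fold change of -0.67, with 1 of 12 called lower.

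The count of 8 depends on single libraries. Leaving out each library in turn gave 2 to 15 calls, all higher, and the share of all genes called in these fits is not given. Rrm2 and Mcm4 were called in all 10 of these fits, Ccne1 in 9, Uhrf1 and Tyms in 7, Top2a in 4, Cdc6 in 3 and Rrm1 in 2. The count was 2 without sham replicate 4, 3 without 40 mJ/cm2 replicate 1, 4 without 40 mJ/cm2 replicate 3 or sham replicate 2, 5 without sham replicate 1 or 5, and 15 without 40 mJ/cm2 replicate 4. Within libraries ending in R1_001 (3 against 3) the class medians were 1.11 and 1.45, and within those ending in R1 (2 against 2) they were 0.74 and 0.43, with no member called in either.

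**Figure D2:**
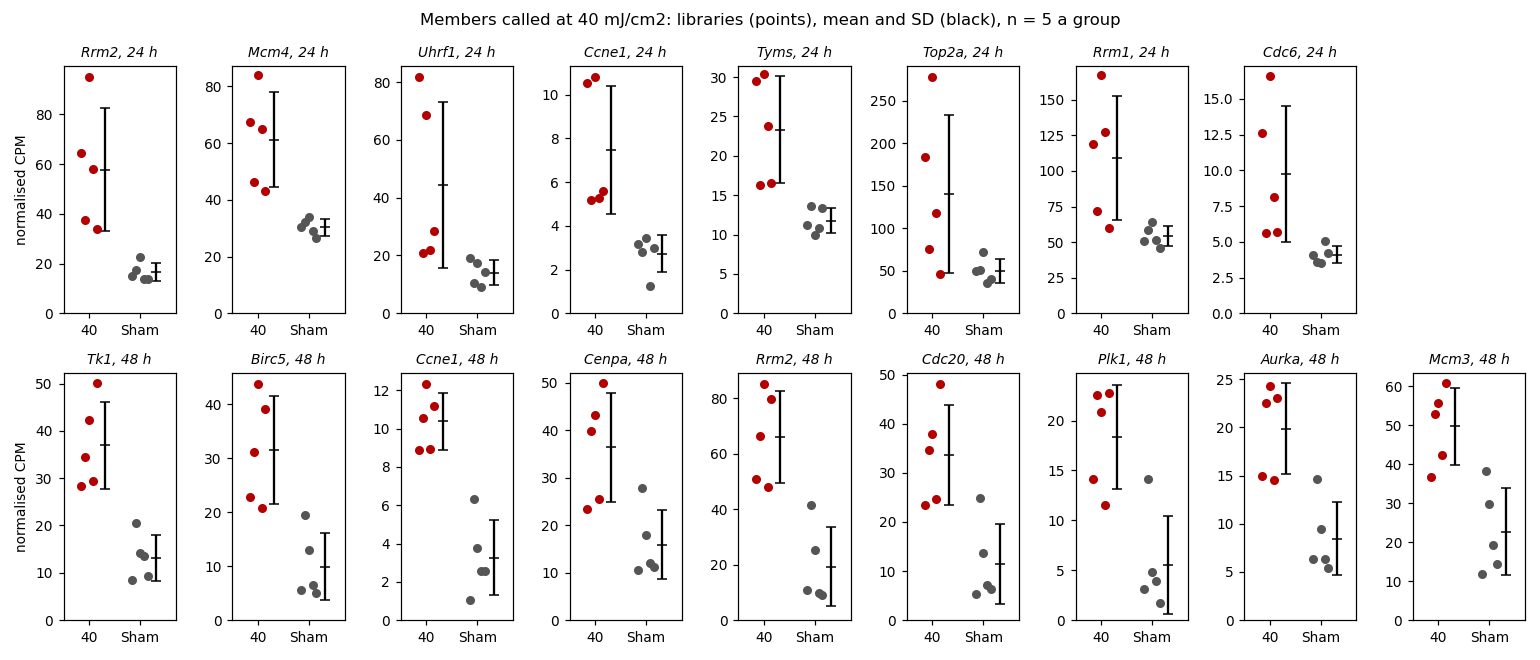
Normalised CPM of the members called at 40 mJ/cm2 at 24 h (top row) and 48 h (bottom row), 5 libraries at 40 mJ/cm2 left of 5 sham libraries, with mean and SD in black. At 24 h Rrm2 lay at 33.9 to 95.2 CPM after 40 mJ/cm2, against 13.7 to 22.6 CPM in sham skin. At 48 h sham replicate 2 was the highest sham library of every member shown.

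At the lower doses most members were also above sham at 24 h, without calls. No member was called at 5, 10 or 20 mJ/cm2, beside 0%, 0% and 0.0803% of all genes. At 10 mJ/cm2, 39 members had an unadjusted p under 0.05, all higher, with median log2 fold changes of 0.71 for replication and 1.20 for mitosis members. Uhrf1 led with 1.51 ± 0.36 (adjusted p = 0.735). In 10 members every 10 mJ/cm2 library was above every sham library, where 0.466% of all genes were: Ccnb1, Ccne1, Cdca8, Cdk1, Cenpa, Foxm1, Plk1, Top2a, Tyms and Uhrf1. At 5 mJ/cm2 that held for Cdc45, Cdca8, Foxm1 and Plk1, where 0.203% of all genes did so. At 20 mJ/cm2 it held for Cenpa alone, where 1.05% of all genes did so. Unadjusted p fell under 0.05 for 8 members at 5 mJ/cm2 and 17 at 20 mJ/cm2, all higher, and DESeq2 called none at these 3 doses. Among all 18677 genes, 459, 837 and 1303 had such a p at 5, 10 and 20 mJ/cm2. These comparisons share their sham libraries.

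At 48 h after 40 mJ/cm2, 9 members rose and none fell, beside 7.62% of all genes called and 4.00% called higher. They were 4 replication members (Tk1, Ccne1, Rrm2 and Mcm3) and 5 mitosis members (Birc5, Cenpa, Cdc20, Plk1 and Aurka). Median log2 fold changes were 0.95 over replication and 1.25 over mitosis members, beside -0.00 over all genes. Ube2c was the single member below 0.

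Thymidine kinase (Tk1), which salvages thymidine for DNA synthesis, had 28.3, 34.4, 42.3, 29.5 and 50.1 CPM at 40 mJ/cm2, against 8.46, 20.6, 14.2, 13.5 and 9.24 CPM in sham skin. The groups did not overlap, with a log2 fold change of 1.43 ± 0.36 (SE, adjusted p = 0.0156). Cyclin E1 (Ccne1) had 8.89, 10.5, 12.3, 8.94 and 11.2 CPM, against 1.06, 6.31, 3.75, 2.56 and 2.59 CPM in sham skin. All irradiated values again lay higher, with a log2 fold change of 1.57 ± 0.42 (adjusted p = 0.0211). Rrm2 had 50.8, 66.4, 85.1, 48.1 and 79.9 CPM, against 10.8, 41.7, 25.3, 9.81 and 9.00 CPM in sham skin. Its groups were apart as at 24 h, with a log2 fold change of 1.71 ± 0.48 (adjusted p = 0.0296).

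Among mitosis members, Birc5 (survivin, a subunit of the chromosomal passenger complex) had 22.9, 31.1, 43.8, 20.8 and 39.2 CPM at 40 mJ/cm2, against 5.55, 19.5, 13.0, 6.54 and 5.05 CPM in sham skin. It was the only mitosis member with every irradiated library above every sham library, and its log2 fold change was 1.58 ± 0.42 (adjusted p = 0.0208). The centromeric histone Cenpa had 23.3, 39.8, 43.1, 25.6 and 49.9 CPM, against 10.6, 27.9, 17.9, 11.9 and 11.2 CPM in sham skin, with a log2 fold change of 1.15 ± 0.32 (adjusted p = 0.0289). Cdc20, an activator of the anaphase-promoting complex, had 23.3, 34.6, 37.9, 24.7 and 48.0 CPM, against 5.29, 24.9, 13.6, 7.25 and 6.41 CPM in sham skin, with a log2 fold change of 1.48 ± 0.43 (adjusted p = 0.0350). In both, sham replicate 2 reached into the irradiated range. The mitotic kinase Plk1 had 14.1, 22.6, 20.9, 11.5 and 22.8 CPM, against 3.17, 14.1, 4.81, 3.92 and 1.73 CPM in sham skin, with a log2 fold change of 1.65 ± 0.49 (adjusted p = 0.0383). Aurka, the kinase of spindle poles, had 14.9, 22.5, 24.3, 14.6 and 23.1 CPM, against 6.34, 14.7, 9.48, 6.30 and 5.42 CPM in sham skin, with a log2 fold change of 1.19 ± 0.36 (adjusted p = 0.0404). In both kinases too, sham replicate 2 was the sham library that overlapped. The helicase subunit Mcm3 was the ninth call, with 1.08 ± 0.33 (adjusted p = 0.0441). Besides Tk1, Ccne1, Rrm2 and Birc5, E2f1 and Gins2 had all irradiated libraries above all sham libraries, where 6.03% of all genes did so.

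Sham replicate 2 at 48 h had a replication level of 4.75 and a mitosis level of 5.07, against 3.20 to 4.36 and 2.84 to 4.21 in the other 4 sham animals. Its inner root sheath level was 5.46, the highest of the group. Without it, 35 members were called at 40 mJ/cm2 (12 replication and 23 mitosis), all higher, with class medians of 1.31 and 2.08. The same library is the one left out by the limit of 3 on the inner root sheath level at 48 h, which with that limit applied to every dose gave 43 members higher and 1 lower. With the inner root sheath level as a covariate 40 members were called, all higher. Against these, the count was 0 without sham replicate 5, 1 without sham replicate 1 or 4 or 40 mJ/cm2 replicate 2 or 3, and 3 without sham replicate 3 or 40 mJ/cm2 replicate 5. Of the 9 called members, Tk1 was called in 9 of 10 such fits, Birc5 and Ccne1 in 5, Cenpa, Rrm2, Cdc20, Plk1 and Aurka in 3 and Mcm3 in 2. The share of all genes called in the alternative fits is not given, so their member counts stand without a background.

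Skeletal muscle genes were lower at 40 mJ/cm2 at 48 h. Their level was 9.94 to 10.85 at 40 mJ/cm2, against 11.16 to 11.92 in sham skin, and 8 of 12 listed muscle genes fell, with a median log2 fold change of -1.18. With the muscle level as a covariate, 2 members were called, both of replication, and the class medians were 0.49 and 0.31. All 12 muscle genes and all 10 inner root sheath genes had counts in both groups, and how far muscle content enters the member values was not tested further. Within libraries ending in R1 (3 against 3), 38 members were called higher, with class medians of 1.15 and 1.68. For that fit too the share of all genes called is not given. Within those ending in R1_001 (2 against 2), where sham replicate 2 is 1 of 2 sham libraries, none was called and the medians were 0.70 and 0.79.

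**Figure D3:**
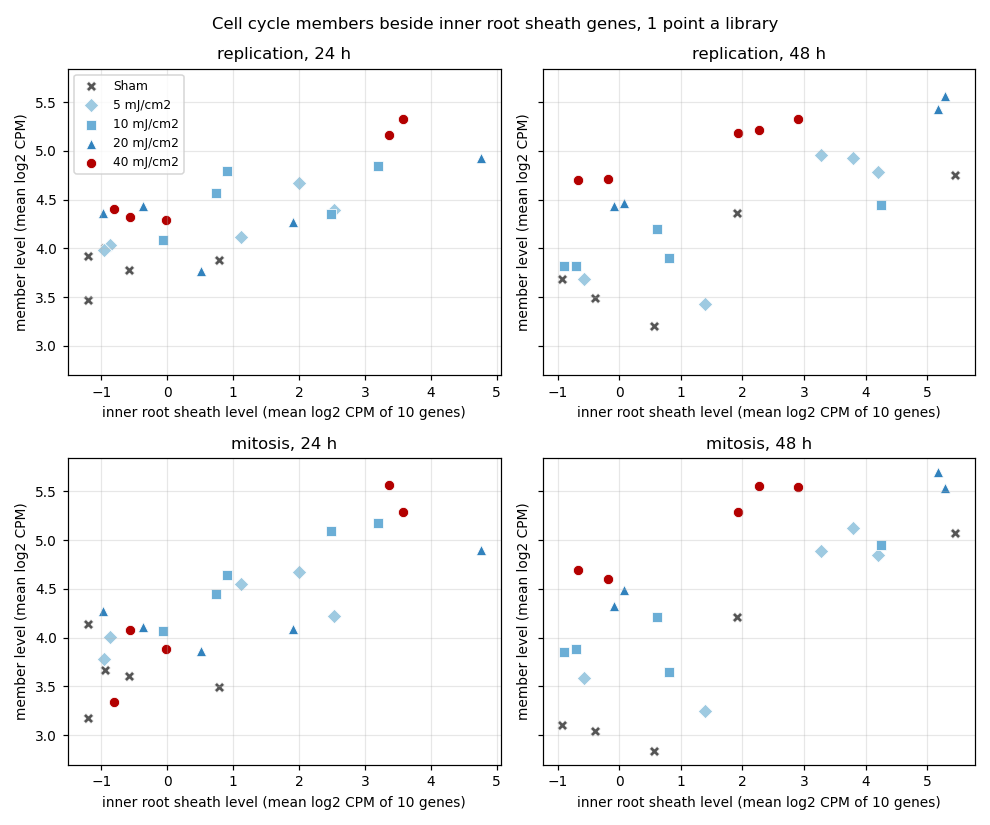
Replication level (top) and mitosis level (bottom) of each library against its inner root sheath level at 24 h (left) and 48 h (right), with doses by colour and marker. At 24 h the 40 mJ/cm2 libraries with inner root sheath levels of 3.58 and 3.36 were the highest in both classes, and at 48 h the sham library at 5.46 was the highest sham library.

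At 20 mJ/cm2 and 48 h, Cenpa was the member called, beside 0.525% of all genes called and 0.471% called higher. It had 27.1, 38.4, 55.3 and 69.5 CPM in the 4 libraries, with a log2 fold change of 1.5 ± 0.34 (adjusted p = 0.0467). Of the 4 libraries, 3 lay above every sham library. All 45 members were above 0, with class medians of 0.88 and 1.11. The mitosis levels were 4.49, 4.33, 5.70 and 5.53 and the hair shaft levels of the same animals -1.61, -1.57, 0.90 and 1.37, against -2.04 to 0.21 in sham skin. With the hair shaft level as a covariate the class medians were 0.46 and 0.56. The call was held in 3 of 9 fits that left out a library each, in which between 0 and 17 members were called. For those fits the share of all genes called is not given. E2f1, Gins1 and Gins2 had all 20 mJ/cm2 libraries above all sham libraries, where 3.02% of all genes did so. At 5 and 10 mJ/cm2 no member was called, beside 0% of all genes at each. Class medians were 0.42 and 0.48 at 5 mJ/cm2, and -0.02 and 0.24 at 10 mJ/cm2. At 10 mJ/cm2, 9 of 19 replication and 18 of 26 mitosis members were above 0. Unadjusted p fell under 0.05 for 5 members at 5 mJ/cm2, all higher, and none at 10 mJ/cm2, and DESeq2 called none. The counts over all 18677 genes were 630 at 5 mJ/cm2 and 507 at 10 mJ/cm2.

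At 72 h 44 of 45 members were above 0 at each of the 4 doses, and none was called. Ube2c was the exception, with log2 fold changes of -0.41, -0.08, -0.47 and -0.15 at 5, 10, 20 and 40 mJ/cm2. The share of all genes called was 1.16% at 40 mJ/cm2 and 0% at 5, 10 and 20 mJ/cm2. Class medians (replication, then mitosis) were 0.79 and 1.34 at 5 mJ/cm2, 0.90 and 1.06 at 10, 0.48 and 0.36 at 20, and 0.92 and 1.26 at 40 mJ/cm2. At an unadjusted p under 0.05 there were 21, 20, 0 and 24 members in that order, all higher, beside 637, 468, 203 and 2042 of 18677 genes. DESeq2 called 1 member at 40 mJ/cm2 and none at the other doses. Cyclin E1 (Ccne1) had the lowest adjusted p at 40 mJ/cm2, with a log2 fold change of 1.60 ± 0.51 (adjusted p = 0.156). The mitosis level was 5.22, 5.72, 4.25, 5.01 and 3.90 at 40 mJ/cm2, against 3.67, 2.87, 4.62, 3.07 and 3.33 in sham skin, so 3 irradiated animals were above all sham animals and 2 were not. Within libraries ending in R1 (3 against 3) the class medians at 40 mJ/cm2 were 0.55 and 0.61, and within those ending in R1_001 (2 against 2) they were 1.57 and 2.28. A single fit of all 145 libraries called 10 members at this time and dose, all higher. The share of all genes called in that fit or with DESeq2 is not given, so these counts stand without a background.

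Follicle genes differed at 72 h too. The inner root sheath list had median log2 fold changes of 4.43, 4.38, 0.47 and 1.38 at 5, 10, 20 and 40 mJ/cm2, with none of its 10 genes called. At 10 mJ/cm2 the mitosis levels were 5.44, 5.11, 3.04, 3.64 and 5.54, and the hair shaft levels of the same animals were 1.28, 0.40, -2.03, -1.47 and 1.52, against -2.11 to -1.11 in sham skin. The 3 animals with high mitosis levels were those with high hair shaft levels. Class medians at 72 h with the hair shaft level as a covariate are not given for the lower doses. The part of hair content there was not tested further.

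At 96 h the direction differed between doses. No member was called at any dose, beside 0.118% of all genes at 40 mJ/cm2 and 0% at the others. Class medians were -0.45 and -0.47 at 40 mJ/cm2 and -0.57 and -0.88 at 5 mJ/cm2, but 0.14 and 0.29 at 10 and 0.23 and 0.48 at 20 mJ/cm2. Unadjusted p fell under 0.05 for 8 members at 5 mJ/cm2 and 1 at 40 mJ/cm2, all lower, and for none at 10 and 20 mJ/cm2. Over all 18677 genes there were 1736, 204, 786 and 878 at 5, 10, 20 and 40 mJ/cm2. DESeq2 called no member. The sham libraries themselves were high at 96 h: their mitosis level had a median of 5.17, against 3.33 in sham skin at 72 h.

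**Figure D4:**
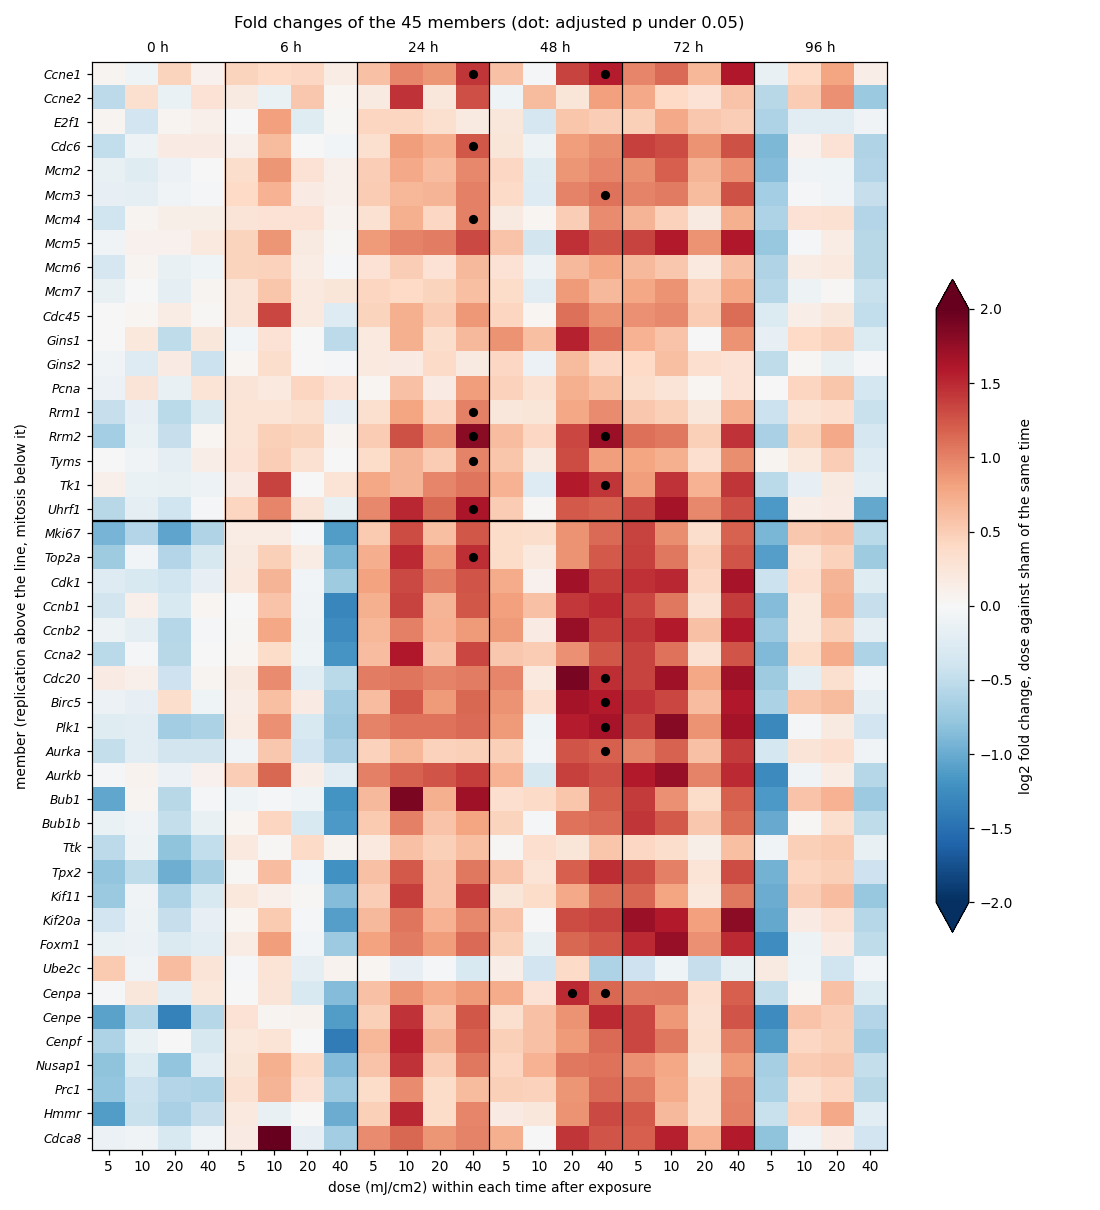
Log2 fold change of each member (rows) at each dose against sham of the same time (columns, 5 to 40 mJ/cm2 within each time), with a dot at an adjusted p under 0.05. Dots lie at 24 and 48 h in 40 mJ/cm2 and at Cenpa at 48 h in 20 mJ/cm2, and Ube2c is pale or blue where the other members are red.

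The difference of the 40 mJ/cm2 effect between neighbouring times was tested directly in the fit of all libraries. No member was called in any of the 5 steps, beside 1.71% of all genes for 6 h minus 0 h, 0.155% for 24 minus 6 h, 0% for 48 minus 24 h, 0% for 72 minus 48 h and 0.0375% for 96 minus 72 h. From 6 to 24 h, 33 members had an unadjusted p under 0.05, all towards a higher effect, with class medians of 0.97 and 1.89. Cenpa led with 1.74 ± 0.51 (adjusted p = 0.194). From 72 to 96 h, 37 members had an unadjusted p under 0.05, all towards a lower effect, with class medians of -1.39 and -1.86. From 0 to 6 h it was 1 member, lower, and in the other 2 steps none. All-gene counts at that p were 2028, 1076, 464, 163 and 1342 of 18677 in the 5 steps in order of time.

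Among irradiated animals alone, no member was called for a slope over log2 dose, where 0%, 1.43%, 0.980%, 3.79%, 0.551% and 0.0428% of all genes were called at 0, 6, 24, 48, 72 and 96 h. At 6 h 16 members had an unadjusted p under 0.05, all falling with dose, and the mitosis median was -0.35 per doubling of dose. At 48 h 26 members did so, all rising, with class medians of 0.26 and 0.30 per doubling. At 24 h it was 6, all rising, and at 0, 72 and 96 h none. Such a p was found for 364, 2194, 1956, 3034, 1281 and 766 of 18677 genes at 0, 6, 24, 48, 72 and 96 h. DESeq2 called 1 member at 6 h, falling, and 1 at 48 h, rising, and its share of all genes called is not given. The inhibitor gene Cdkn1a was called for a rising slope at 6, 24 and 48 h, with 0.41 ± 0.08, 0.45 ± 0.11 and 0.24 ± 0.07 per doubling (adjusted p = 0.00586, 0.0423 and 0.0483).

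Sham skin was not constant. The mitosis level had medians of 4.81, 3.57, 3.60, 3.11, 3.33 and 5.17 at 0, 6, 24, 48, 72 and 96 h, and the replication level 3.88, 3.60, 3.88, 3.69, 3.63 and 4.80. Against 0 h, the checkpoint kinase Ttk (Mps1) fell by 1.38 ± 0.39 at 24 h (adjusted p = 0.0373) and by 1.44 ± 0.39 at 48 h (adjusted p = 0.0282) on the log2 scale. The ubiquitin-conjugating enzyme Ube2c rose by 1.14 ± 0.26 at 48 h (adjusted p = 0.00778) and by 0.86 ± 0.25 at 96 h (adjusted p = 0.0452). The skeletal muscle level of sham skin had medians of 9.76, 11.06, 11.41, 11.60, 11.66 and 11.08 at 0, 6, 24, 48, 72 and 96 h, and over all 145 libraries it had an r of -0.60 with Ttk and 0.81 with Ube2c. Sham replicate 3 at 0 h, with a muscle level of 9.26, had 34.8% of its counts in mitochondrial genes, the highest share of all libraries. The part of either in these calls was not tested. These were the members called, beside 4.43%, 6.29% and 5.17% of all genes at 24, 48 and 96 h. None was called at 6 h (2.64% of genes) or 72 h (3.80%), where 5 and 14 members had an unadjusted p under 0.05. Genes with such a p numbered 2633 and 3543 of 18677 at 6 and 72 h. At 24, 48 and 96 h, 21, 13 and 1 members were lower and 1, 1 and 13 higher at such a p. All-gene counts there were 3457, 5208 and 4219. Mitosis medians against 0 h were -0.76, -1.19, -0.96, -1.09 and 0.16 at 6, 24, 48, 72 and 96 h. Replication medians were -0.16, -0.37, 0.00, -0.36 and 0.53. DESeq2 was not run on these comparisons.

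The 8 members Mcm4, Rrm2, Pcna, Ccne1, Mki67, Top2a, Ccnb1 and Plk1, chosen by role, were followed across groups, as group medians in sham, 5, 10, 20 and 40 mJ/cm2 order. Medians are given here at some of the times only, and those at 0 h are left out. Rrm2 had 18.4, 21.7, 21.8, 27.2 and 17.2 CPM at 6 h, 14.9, 20.5, 37.5, 30.0 and 58.0 CPM at 24 h, and 10.8, 40.7, 19.8, 53.4 and 66.4 CPM at 48 h. At 72 h it had 10.2, 41.5, 40.3, 20.7 and 60.9 CPM, and at 96 h 44.6, 21.8, 57.1, 67.3 and 27.7 CPM. Its highest median was at 40 mJ/cm2 at 24, 48 and 72 h, while at 6 h and 96 h 20 mJ/cm2 was highest. Mcm4 followed at 24 h with 30.3, 36.0, 49.7, 39.5 and 65.0 CPM and at 48 h with 25.1, 43.4, 29.3, 42.2 and 65.1 CPM. Cyclin E1 (Ccne1) had 2.97, 4.50, 6.15, 4.62 and 5.57 CPM at 24 h, 2.59, 6.23, 3.31, 8.67 and 10.5 CPM at 48 h, and 2.90, 4.14, 7.25, 4.81 and 11.2 CPM at 72 h. The sliding clamp Pcna had medians of 85.9, 72.1, 120, 82.2 and 145 CPM at 24 h and 65.7, 107, 74.9, 127 and 113 CPM at 48 h.

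Among the 4 mitosis members, the proliferation antigen Mki67 had medians of 68.6, 56.2, 106, 67.6 and 23.6 CPM at 6 h, again in sham, 5, 10, 20 and 40 mJ/cm2 order. Cyclin B1 (Ccnb1) had 15.9, 15.1, 33.4, 22.2 and 6.88 CPM at 6 h, and Top2a had 55.0, 55.2, 116, 81.6 and 28.7 CPM. In these 3 the 40 mJ/cm2 group had the lowest median at 6 h, and its range overlapped that of sham. At 48 h Mki67 had 29.9, 90.8, 61.8, 109 and 141 CPM, Ccnb1 had 8.20, 38.9, 21.0, 47.4 and 52.1 CPM, and Plk1 had 3.92, 8.70, 5.81, 17.7 and 20.9 CPM. There the 40 mJ/cm2 group had the highest median in these 3. Medians of Plk1 at 6 h, of Top2a at 48 h and of all 4 at the other times are not given here. The spread within groups was wide: sham Mki67 at 48 h ran from 24.1 to 170 CPM, and at 40 mJ/cm2 it ran from 76.0 to 237 CPM.

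Other genes of the same processes were taken from lists chosen by function. Of 30 further replication genes, 5 rose at 24 h after 40 mJ/cm2 (where 1.62% of all genes rose) and none fell, with a median of 0.81, among them Exo1 (a repair exonuclease, 1.89 ± 0.41, adjusted p = 0.0135), the origin recognition subunit Orc1 (1.42 ± 0.34, adjusted p = 0.0237), Mcm10 (1.53 ± 0.37, adjusted p = 0.0269) and Clspn. Of 41 further mitosis genes, 2 rose at 24 h (Kif15 and Ckap2) and 10 at 48 h (where 4.00% of all genes rose), and none fell, with medians of 1.06 and 1.20. The 4 with the lowest adjusted p at 48 h were Knstrn (1.45 ± 0.36, adjusted p = 0.0149), Anln (1.28 ± 0.34, adjusted p = 0.0205), Fam83d (0.88 ± 0.25, adjusted p = 0.0275) and the cyclin Ccnf (1.30 ± 0.37, adjusted p = 0.0320). At 48 h 1 of the 30 replication genes rose, the fork protector Timeless, with 0.91 ± 0.26 (adjusted p = 0.0328). Of the 10 fits that left out 1 library each, Exo1 was called in all 10, Knstrn in 8, Anln in 6, Mcm10 in 5, Orc1, Kif15 and Ckap2 (at 24 h) in 4, and Clspn, Fam83d, Ccnf and Timeless in 3. At 6 h, 40 of the 41 mitosis genes were below 0, with a median of -0.79 and none called.

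Among regulators, the inhibitor Cdkn1a rose at 40 mJ/cm2 by 1.5 ± 0.23 at 6 h (adjusted p = 0.000468), 1.40 ± 0.32 at 24 h (adjusted p = 0.0192) and 0.77 ± 0.17 at 48 h (adjusted p = 0.00588), and at 20 mJ/cm2 by 0.84 ± 0.18 at 48 h (adjusted p = 0.0341). Of the 16 inhibitors tested, the atypical repressor E2f8 also rose at 24 h (1.39 ± 0.34, adjusted p = 0.0258). At 48 h its relative E2f7 (1.59 ± 0.38, adjusted p = 0.0107) and the inhibitor Cdkn2d (0.66 ± 0.20, adjusted p = 0.0374) rose, and Cdkn1c (p57) fell by 0.74 ± 0.21 (adjusted p = 0.0286). Cdkn2d also rose at 20 mJ/cm2 (1.02 ± 0.21, adjusted p = 0.0256). Of 11 G1 cyclins and kinases, cyclin D1 (Ccnd1) rose at 24 h (1.08 ± 0.22, adjusted p = 0.00712), and the kinase Cdk6 fell by 0.74 ± 0.21 at 6 h (adjusted p = 0.0423). With 1 library left out in turn, Cdkn1a at 40 mJ/cm2 was called in all 10 fits at 6 and 48 h and in 8 at 24 h, E2f7 and Ccnd1 in all 10, E2f8, Cdkn1c and Cdkn2d in 4, and Cdk6 in 2. At 20 mJ/cm2 Cdkn2d was called in 4 of 9 such fits and Cdkn1a in 3. None of 15 checkpoint genes was called at any dose and time, and Wee1, the kinase that holds back Cdk1, was called for a falling slope over dose at 6 h (-0.31 ± 0.08 per doubling, adjusted p = 0.0434). Beside these, 4 of 7 genes of stressed epidermis rose at 24 h and 6 of 7 at 48 h. The shares of all genes called higher at 40 mJ/cm2 were 1.62% and 4.00% at these times. Of the 7 basal keratinocyte genes, the keratin Krt14 alone was called at 48 h, where it rose (1.71 ± 0.39, adjusted p = 0.00742).

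Over the 145 libraries, replication and mitosis levels had a Pearson r of 0.87, and hair matrix genes had an r of 0.82 with the replication level and 0.81 with the mitosis level. Basal keratinocyte genes had an r of 0.21 with the replication level and 0.02 with the mitosis level. For inner root sheath genes these were 0.65 and 0.68, for hair shaft genes 0.57 and 0.55, and for skeletal muscle genes -0.13 and -0.40. In the 30 sham libraries alone, the hair matrix had an r of 0.92 with replication and 0.84 with mitosis. Basal keratinocyte genes there had an r of -0.16 and -0.42. Libraries share dose, time and tissue content, so these values are descriptions. The 5 genes outside the list most like the mean of all members were Nek2 (r = 0.95), Kif2c (0.94), Melk (0.94), Cdca2 (0.94) and Cdca5 (0.93). Among members, Kif20a, a kinesin of cytokinesis, was most like the mean of the rest (0.96).

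Ube2c, which works with the anaphase-promoting complex, was the least like the others, with an r of 0.15, followed by the replication complex subunit Gins2 (0.26) and Ttk (0.41). At 48 h Ube2c had 67.3, 46.3, 74.3, 51.5 and 62.7 CPM at 40 mJ/cm2, against 113, 83.8, 84.7, 80.7 and 98.6 CPM in sham skin. All irradiated libraries lay below all sham libraries, where 6.11% of all genes did so, and the log2 fold change was -0.61 ± 0.24 (adjusted p = 0.126). In the GENCODE annotation of GRCm38, 22.8% of the exon bases of Ube2c lie opposite exons of Tnnc2, a gene for troponin C of fast skeletal muscle. Tnnc2 had 644 to 1170 CPM at 40 mJ/cm2 at 48 h, against 1494 to 2804 CPM in sham skin, and it fell by 1.17 ± 0.29 on the log2 scale (adjusted p = 0.0128). Over all libraries Ube2c had an r of 0.86 with Tnnc2 and of 0.02 with the other 25 mitosis members. With the muscle level as a covariate, the fold change of Ube2c at 48 h was 0.12. Gins2 had 67.3% of its exon bases opposite Gse1 and an r of 0.70 with it. The library kit marks strand, but no source used here says whether the counting used it, so reads of Ube2c and Gins2 and of the genes opposite them cannot be told apart. Of the 45 members, 13 share exon bases with another protein-coding gene in that annotation. For Kif20a (29.3% opposite Cdc23) the r with the other gene was 0.40, against 0.96 with the other members.

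**Figure D5:**
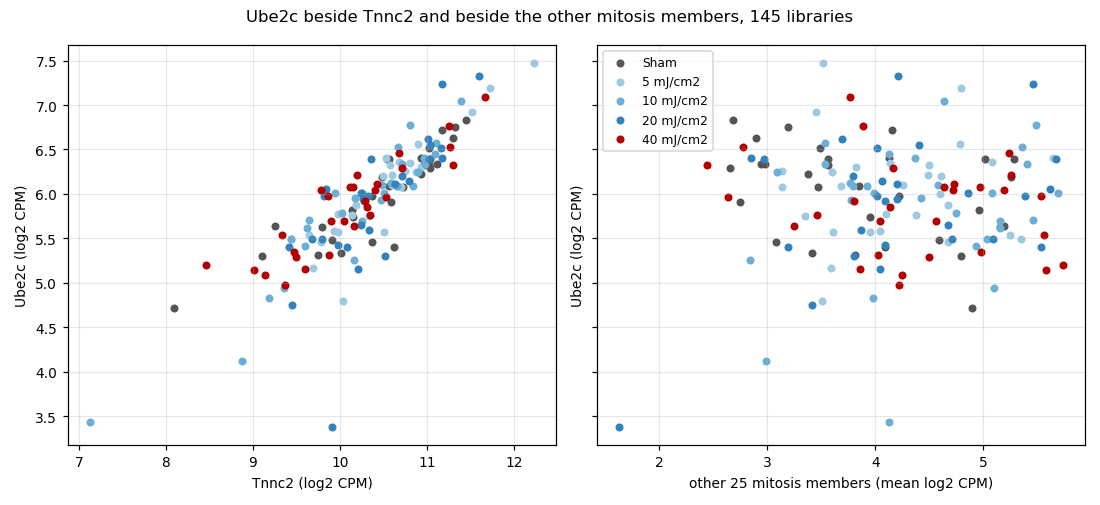
Log2 CPM of Ube2c in 145 libraries against log2 CPM of Tnnc2 (left) and against the mean log2 CPM of the other 25 mitosis members (right), with doses by colour. Ube2c was higher where Tnnc2 was higher (r = 0.86), and its r with the other mitosis members was 0.02.

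Promoters were read for the members that RefSeq lists on GRCm38.p6, 36 of 45, in a window around the transcription start that lies mostly before it, on both strands. The E2F motif was searched in the forms TTTCCCGC, TTTCGCGC, TTTGCCGC and TTTGGCGC. The CHR element, through which the late cell cycle complexes bind, was searched as TTTGAA, and the CCAAT box as CCAAT. An E2F form was found in 6 of 15 replication members (40.0%) and 1 of 21 mitosis members (4.76%), beside 2.60% of all genes with a promoter and 4.14% of the genes tested here. CHR was found in 16 of 21 mitosis members (76.2%) and 2 of 15 replication members (13.3%), beside 20.2% of all and 15.1% of tested genes. CCAAT was found in 19 of 21 mitosis members (90.5%) and 10 of 15 replication members (66.7%), beside 41.1% of all genes. Before the start alone, CHR was in 8 of 21 mitosis members (38.1%), beside 18.3% of all genes. The further replication genes had an E2F form in 9 of 22 (40.9%), and the further mitosis genes had CHR in 25 of 34 (73.5%). A match describes letters and says nothing of binding in these samples.

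The last 160 bases before the start are shown for 3 replication members that hold E2F forms there, with E2F forms and CCAAT in capitals. The helicase subunits Mcm5 and Mcm6, neither of them called, each hold a pair of E2F forms that overlap on opposite strands. Mcm6 holds 1 more, and Cdc6, called at 24 h, holds 1. Of the other replication members called at 24 h, Uhrf1 had 1 E2F form in the windows read. Ccne1, Rrm1, Rrm2 and Tyms had 0, and Mcm4 had no promoter listed.
Mcm5 (chr8:75109349-75109508, plus strand): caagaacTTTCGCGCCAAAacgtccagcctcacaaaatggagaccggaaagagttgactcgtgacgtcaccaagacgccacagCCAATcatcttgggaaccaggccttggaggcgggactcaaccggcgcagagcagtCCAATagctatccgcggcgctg
Mcm6 (chr1:128359706-128359865, minus strand): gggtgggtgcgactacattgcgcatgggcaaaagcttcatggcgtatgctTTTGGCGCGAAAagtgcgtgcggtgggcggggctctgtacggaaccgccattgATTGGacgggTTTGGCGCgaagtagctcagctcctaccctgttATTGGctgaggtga
Cdc6 (chr11:98907991-98908150, plus strand): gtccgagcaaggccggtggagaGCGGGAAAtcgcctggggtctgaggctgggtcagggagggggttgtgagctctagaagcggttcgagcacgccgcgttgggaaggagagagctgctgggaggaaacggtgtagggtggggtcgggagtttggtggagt

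For comparison, the same stretch of 4 mitosis members is shown, with CHR, CCAAT and any E2F form in capitals. Cdk1 is the mitosis member that also has an E2F form, Cdc20 was called at 48 h and Top2a at 24 h. Ube2c carries the same elements although its counts did not follow the other members. Of the other mitosis members called at 48 h, Cenpa, Plk1 and Aurka held CHR and CCAAT in the window read, and Birc5 held neither.
Cdk1 (chr10:69352913-69353072, minus strand): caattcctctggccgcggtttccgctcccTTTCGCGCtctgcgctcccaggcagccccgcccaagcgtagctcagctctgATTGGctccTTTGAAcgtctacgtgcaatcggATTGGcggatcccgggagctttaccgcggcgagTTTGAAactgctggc
Cdc20 (chr4:118437344-118437503, minus strand): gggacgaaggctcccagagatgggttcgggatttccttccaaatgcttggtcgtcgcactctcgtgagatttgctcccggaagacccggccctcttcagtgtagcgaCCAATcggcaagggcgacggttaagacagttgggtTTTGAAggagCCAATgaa
Top2a (chr11:99024190-99024349, minus strand): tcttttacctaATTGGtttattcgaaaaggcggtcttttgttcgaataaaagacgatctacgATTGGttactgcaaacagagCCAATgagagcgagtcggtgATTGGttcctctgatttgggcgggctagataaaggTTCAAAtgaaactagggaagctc
Ube2c (chr2:164769769-164769928, plus strand): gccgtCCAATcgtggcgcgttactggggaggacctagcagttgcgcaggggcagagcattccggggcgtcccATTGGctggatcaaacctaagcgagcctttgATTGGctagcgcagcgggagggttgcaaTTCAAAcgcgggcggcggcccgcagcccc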

How the data were processed

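Poly(A) RNA of 145 skin libraries was sequenced with a TruSeq-stranded kit as single reads, per the labels' protocols. Values are expected counts (estimated counts per gene) as deposited by the authors in 1 table, of which 12.6% are not whole. Tools in the submitters' processing notes are STAR 2.7.10a, fastp 0.23.0 and bcl2fastq 2.20.422, with DESeq2 1.36.1, and the build is GRCm39. The counter is not named.

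The expected counts were rounded and tested with edgeR 4.0.16 (R 4.3.3): TMM scaling, filterByExpr, quasi-likelihood F tests per time over all 5 dose groups, two-sided, with the title ending (R1_001 in 71 libraries, R1 in 74, meaning not stated) as covariate. Adjustment was by Benjamini-Hochberg over all 18677 genes of a comparison, and SE were taken from the fold and F. Class levels use a prior count of 2. Each library is a separate animal by the series' design, and the number of counts limits the precision of a value. Gene symbols and exon overlaps came from GENCODE vM21 (GRCm38) and promoter sequences from RefSeq (GRCm38.p6), another build than the authors'. The test was checked on simulated data. DESeq2 1.42.0, other scalings, filters, covariates and left-out libraries were alternatives. The members and lists were chosen with earlier results of these data known. Named were members that were called, the 8 followed across groups, the 5 most correlated other genes, and up to 4 called genes per list. Of the genes this rule takes, 1 is not reported here.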

Additional observations from a re-analysis of the deposited data

Results flagged for a closer look

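Among 98 groups of 4 or 5 libraries, 5 held a library whose gap to its nearest neighbour was large for the range of the group, where chance gives about 5%. The replication level of 20 mJ/cm2 replicate 5 at 0 h was -0.27, below the other 4 libraries at 3.83 to 4.63, and its total of 0.204 M counts was among the lowest of all. In 10 mJ/cm2 replicate 4 at 96 h the replication level was 3.68, below 4.99 to 5.17 in the other 3 libraries, and the mitosis level was 3.21, below 5.40 to 5.70. The mitosis level of 20 mJ/cm2 replicate 2 at 96 h was 4.16, below 5.41 to 5.64 in the other 3. Plk1 had 14.1 CPM in sham replicate 2 at 48 h, above 1.73 to 4.81 CPM in the other 4 sham libraries, and the inner root sheath level of that library was 5.46.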

How the results depend on the processing

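No paired analysis was possible because the replicate numbers follow accession order and pair no animals. Counts of called members stayed within 1.5 times in 240 alternatives and moved further in 34, and in fits without 1 library did so in 210 and 25. Most comparisons had no member called, and a count of 0 that stayed 0 is among those kept. These totals therefore do not measure how stable the calls were, and the comparisons with calls follow. At 40 mJ/cm2 and 24 h (8 called) the count was 23 with DESeq2, 13 with the muscle level as covariate, 5 with the hair shaft level, 3 with the inner root sheath level, 1 with libraries above an inner root sheath level of 3 left out, 1 in one fit of all libraries, 0 within R1 titles and 0 within R1_001 titles, and 2 to 15 without 1 library. At 40 mJ/cm2 and 48 h (9 called) it was 18 with DESeq2, 30 with no filter, 40 with the hair shaft level, 40 with the inner root sheath level, 44 with that limit, 38 within R1 titles, 0 within R1_001 titles, 4 in one fit, 2 with the muscle level, and 0 to 35 without 1 library. At 20 mJ/cm2 and 48 h (1 called) it was 15 with DESeq2, 22 with no filter, 18 with the muscle level, 13 with the inner root sheath level, 3 with that limit, 3 with RLE scaling, 6 with no title ending, 4 in one fit, and 0 to 17 without 1 library. At 40 mJ/cm2 and 72 h (0 called) it was 1 with DESeq2, 10 in one fit, and 0 to 1 without 1 library. At 40 mJ/cm2 and 6 h (0 called) it was 1 with the muscle level and 1 with no filter. The slope count (0) was 1 at 6 h with DESeq2, and at 48 h 1 with DESeq2, 1 with RLE and 24 with the hair shaft level. For sham at 72 h against 0 h (0 called) it was 1 with no title ending. Ube2c at 40 mJ/cm2 and 48 h was -0.61 and reversed to 0.12 with the muscle level. The inner root sheath alternatives were chosen after seeing the data. No share of all genes called is given beside the counts of the alternatives. The causes were not tested.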
